A study of Homo sapiens with 2 samples.

Results

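CD36, LIPG, GPAM and FAR2 are the 4 genes described here. They encode a fatty acid receptor, an extracellular lipase, the first enzyme of glycerolipid synthesis and a fatty acyl-CoA reductase. They were chosen by name from the genes that the authors' deposited tables list as at least 2-fold higher or lower in the shCav1 sample, so the difference between both samples chose them and is given as a description. The tables hold 7 probe sets of these 4 genes, and 190 genes in all are named there by a single symbol. The label under which they were grouped covers lipid uptake, lipolysis and glycerolipid synthesis. FAR2 belongs to none of these, since it makes fatty alcohols, and it is the gene of the 4 that was lower.

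The samples were 2 RNA preparations of Hep3B, a human hepatocellular carcinoma line, both grown in DMEM-HG medium. One line expressed an shRNA against caveolin-1 (shCav1) and the other a non-target control shRNA (shCtl), and each was hybridised to 1 array. The sources used here do not say whether a line was 1 clone or a pool. The number of arrays limits the precision of every value: the differences have no replicate check, no test was possible, and an effect of lower caveolin-1 cannot be told apart from any other way in which the lines differ.

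Long-chain fatty acids reach a liver cell free or after lipases release them from lipoproteins. Inside the cell they are activated to acyl-CoA, which is joined to glycerol-3-phosphate on the way to phospholipids and triglycerides, burned, or reduced to fatty alcohols for waxes and ether lipids. Caveolin-1 is the main coat protein of caveolae, pits of the plasma membrane rich in cholesterol, and in mouse cells it is needed for CD36 to reach the cell surface.

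The hairpin target was low as labelled. The CAV1 signal in shCav1 was 6.61% and 7.38% of that in shCtl at its 2 listed probe sets. Of 54613 probe sets other than controls, 28128 were kept because the brighter array reached the median signal of 30.7. Over the kept probe sets the robust SD of the log2 difference was 0.21, and 96.0% differed by less than 1.5-fold. Of all kept probe sets, 0.501% were at least 2-fold higher in shCav1, 0.299% were at least 2-fold lower and 0.8% were past 2-fold in either direction. This excess of higher probe sets, 141 against 84, turned to 102 higher against 142 lower when the arrays were set against each other by the bacterial hybridization spikes. These spikes, with 18 probe sets, read higher in shCav1, with log2 differences from 0.07 to 0.25 and a median of 0.14. In 12 of 14 pairs of control probe sets the 5' end read lower than the 3' end in shCav1, compared with shCtl. These pairs cover bacterial as well as human transcripts, and several bacterial transcripts are read by more than a single pair, so the pairs are not independent. Among the human transcripts the 5' minus 3' log2 difference ran from -0.66 to 0.06. The median over all 14 pairs was -0.19 (range -0.70 to 0.23), and the part of this difference in the values below was not tested. None of 27 marker genes of hepatocytes, adipocytes, endothelial cells, macrophages or platelets was in the tables, beside 0.8% of all kept probe sets past 2-fold. At that share so short a list may well hold none, so nothing about cell type is read from this count. Markers under 2-fold are unnamed here and their levels were not seen.

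The 300 bases around a start site of each gene are shown because the data concern transcript levels and 3 of the genes were higher together while 1 was lower. Each window runs from 250 bases before to 50 bases after the start, 5′ to 3′ on the gene's strand, from RefSeq on GRCh38.p14. The CD36 window is chr7:80601957-80602256 on the plus strand, the LIPG window is chr18:49561807-49562106 on the plus strand, the GPAM window is chr10:112183716-112184015 on the minus strand and the FAR2 window is chr12:29149028-29149327 on the plus strand. CD36 has 6 windows in the table and FAR2 has 2, of which the most upstream is printed. Capitals mark a TATA box, a CCAAT box or a GC box on either strand.
CD36: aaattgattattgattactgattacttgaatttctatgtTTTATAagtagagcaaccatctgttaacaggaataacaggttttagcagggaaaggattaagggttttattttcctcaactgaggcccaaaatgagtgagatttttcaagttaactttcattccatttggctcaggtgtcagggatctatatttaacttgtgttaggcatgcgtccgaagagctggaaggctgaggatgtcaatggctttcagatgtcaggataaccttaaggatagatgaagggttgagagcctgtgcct
LIPG: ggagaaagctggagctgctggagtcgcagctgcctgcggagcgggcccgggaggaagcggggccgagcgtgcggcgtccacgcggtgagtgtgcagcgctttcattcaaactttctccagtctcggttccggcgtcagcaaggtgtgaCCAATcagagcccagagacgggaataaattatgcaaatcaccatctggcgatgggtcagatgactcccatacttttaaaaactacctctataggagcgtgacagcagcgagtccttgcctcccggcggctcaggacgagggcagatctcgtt
GPAM: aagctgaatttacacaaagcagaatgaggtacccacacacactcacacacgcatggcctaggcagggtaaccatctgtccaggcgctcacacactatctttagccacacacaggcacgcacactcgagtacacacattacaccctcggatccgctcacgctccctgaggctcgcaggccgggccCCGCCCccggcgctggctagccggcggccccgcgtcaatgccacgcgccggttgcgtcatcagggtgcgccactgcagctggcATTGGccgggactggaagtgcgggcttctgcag
FAR2: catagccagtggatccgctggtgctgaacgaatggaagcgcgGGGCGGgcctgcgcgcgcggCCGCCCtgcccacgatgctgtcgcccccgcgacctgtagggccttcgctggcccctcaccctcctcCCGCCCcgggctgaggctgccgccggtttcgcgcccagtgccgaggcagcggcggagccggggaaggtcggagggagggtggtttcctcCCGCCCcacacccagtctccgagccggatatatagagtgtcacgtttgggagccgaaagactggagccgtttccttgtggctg

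The printed windows differ in base composition. The G and C content was 38.7% for CD36, 58.7% for LIPG, 63.0% for GPAM and 70.0% for FAR2, against a median of 58.7% over all 35116 windows. CpG dinucleotides numbered 2 in the CD36 window, 23 in that of LIPG, 23 in that of GPAM and 32 in that of FAR2. The second FAR2 window had 40.3% G and C and 2 CpG. The other CD36 windows ran from 35.0% to 43.7%, with 1 to 3 CpG. For FAR2 the composition thus depends on the start that is printed, and which start these cells use was not measured. The CCAAT box, searched as CCAAT on both strands, was found in the LIPG window with its first base at -102 and in the GPAM window on the reverse strand at 18, and 34.6% of all windows hold it. The GC box, searched as GGGCGG on both strands, occurred 4 times in the FAR2 window and 1 time in the GPAM window, and 45.0% of all windows hold it. The TATA box, searched as TATAAA on both strands, was in the CD36 window on the reverse strand at -211, and 11.5% of all windows hold it. None of the 4 printed windows held the nuclear receptor half-site AGGTCA (13.8% of all windows), the E-box CACGTG (7.26%), the sterol response element TCACCCCAC (0.430%) or the cAMP response element TGACGTCA (1.85%). Across the other windows of CD36 and FAR2, the second FAR2 window held AGGTCA at -217 and the fifth CD36 window held TATAAA at -216 and CCAAT at -153. A match is a run of letters and not a shown binding site.

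CD36, a scavenger receptor of the plasma membrane that binds long-chain fatty acids and oxidised lipoproteins, was higher in shCav1 at both of its listed probe sets. At 209555_s_at the shCtl array had a linear signal of 32.4 and the shCav1 array one of 83.2. At 206488_s_at it was 22.8 in shCtl and 51.5 in shCav1. The first value pair starts close to the array median and the second below it, and both end above it. The log2 difference was 1.36 at 209555_s_at and 1.17 at 206488_s_at, which is 2.56-fold and 2.26-fold, with a mean of 1.27 ± 0.13 (SD over 2 probe sets, a technical spread within 1 pair of arrays). In a bulk sample, a change in the number of cells with the transcript and a change in its RNA per cell cannot be told apart. The deposited alignments, for which no source used here names a genome build, place these probe sets on chromosome 7, plus strand, from 80267991 to 80306323 and from 80275632 to 80303732. The second interval lies inside the first. Whether the probes themselves overlap was not examined, so the probe sets are not taken as independent readings of the gene.

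LIPG encodes endothelial lipase, a secreted phospholipase that acts mainly on high-density lipoprotein. Its 1 listed probe set, 219181_at, had a signal of 15.9 in shCtl and 52.5 in shCav1. The shCtl signal was thus below the array median, at 0.518 of it, and the shCav1 signal was at 1.71 times the median. The log2 difference was 1.72, which is 3.30-fold. With a single listed probe set there is no second reading of this gene. Its deposited alignment is on chromosome 18, plus strand, from 47088426 to 47119064.

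GPAM encodes the glycerol-3-phosphate acyltransferase of the outer mitochondrial membrane, which adds the first acyl chain in phospholipid and triglyceride synthesis, and it had the largest increase of the 4 genes. At 225424_at it read 39.8 in shCtl and 157 in shCav1. At 225420_at it read 25.5 in shCtl and 108 in shCav1. Both probe sets were near the array median in shCtl and at 5.09 and 3.51 times the median in shCav1. The log2 difference was 1.98 at 225424_at and 2.08 at 225420_at, with a mean of 2.03 ± 0.07 (SD over 2 probe sets), and these values ranked as the 24th and 20th largest increases among the kept probe sets. Both probe sets have the same deposited alignment on the minus strand of chromosome 10, from 113909623 to 113933518. They too are not taken as independent readings.

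FAR2 encodes a peroxisomal reductase that turns long-chain acyl-CoA into fatty alcohol, a step towards waxes and ether lipids, and it was lower in shCav1 at both of its listed probe sets. At 220615_s_at its signal went from 59.8 in shCtl to 21.7 in shCav1. At 239108_at it was 40.4 in shCtl and 11.9 in shCav1. Both were above the array median in shCtl and below it in shCav1, at 0.705 and 0.387 of the median. The shCav1 signal was thus 36.2% of that in shCtl at the first probe set and 29.4% at the second, with log2 differences of -1.47 and -1.77. Their mean was -1.62 ± 0.21 (SD over 2 probe sets), the widest spread of the 3 genes with 2 probe sets. Their deposited alignments are on chromosome 12, plus strand, from 29302231 to 29487005 and from 29488130 to 29488548, so that 239108_at lies downstream of the end of the other. RefSeq lists 4 pseudogenes of FAR2, all on chromosome 2, and signal from their transcripts cannot be told apart here from that of FAR2.

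**Figure D1:**
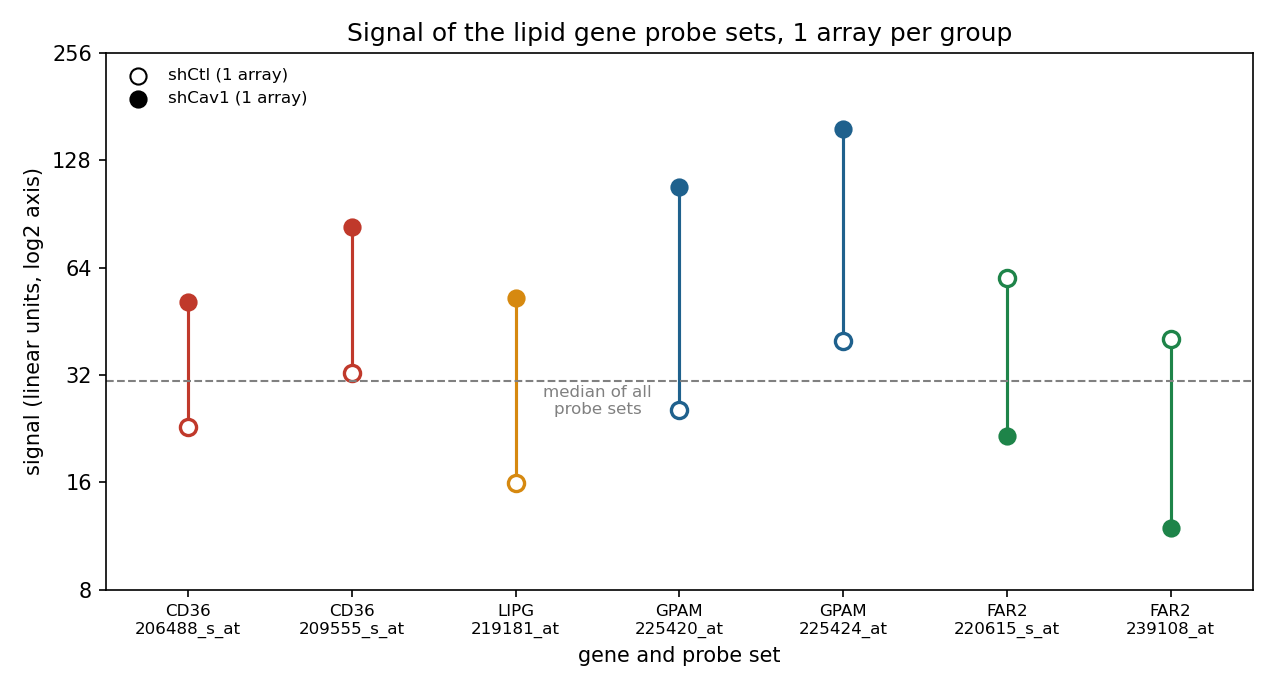
Linear signal (log2 axis) of the 7 probe sets of CD36, LIPG, GPAM and FAR2 on the shCtl array (open points) and the shCav1 array (filled points), 1 array each and no error bars, with the median of all probe sets of 30.7 as a dashed line. The 5 probe sets of CD36, LIPG and GPAM are higher in shCav1, up to 157 for GPAM, and the 2 of FAR2 are lower, down to 11.9.

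CD36, LIPG, GPAM and FAR2 were taken from the probe sets past 2-fold, so their own count of 5 probe sets higher and 2 lower follows from the choice. All 7 passed the brightness filter, but only 2 of them, 209555_s_at of CD36 and 225424_at of GPAM, reached the median signal on both arrays, and the other 5 passed through 1 array. The tables end at 2-fold: the smallest listed increase was 2.0004-fold and the largest increase outside the tables fell just under 2-fold, at a log2 difference of 0.9999990. The probe set of the 4 genes nearest that limit was 206488_s_at of CD36, at 2.26-fold. Further probe sets of these genes that did not reach 2-fold have no gene name in the tables and were not analysed here, so agreement between probe sets covers only the listed ones.

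For 5 of the 7 probe sets the mean log2 signal was above the array median, and the 1000 kept probe sets nearest in brightness give the spread around them. Around the CD36 and GPAM probe sets the 99th percentile of those differences lay between 0.59 and 0.87. Around 220615_s_at of FAR2 the 1st percentile was -0.65. These probe sets were chosen for being past 2-fold, so their lying beyond such percentiles follows from the choice. In addition, 206488_s_at, 225420_at and 220615_s_at passed the brightness filter only through the array where they read higher. For 219181_at of LIPG and 239108_at of FAR2 no such value is given, because at their brightness a probe set passes the filter only if it differs between the arrays.

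**Figure D2:**
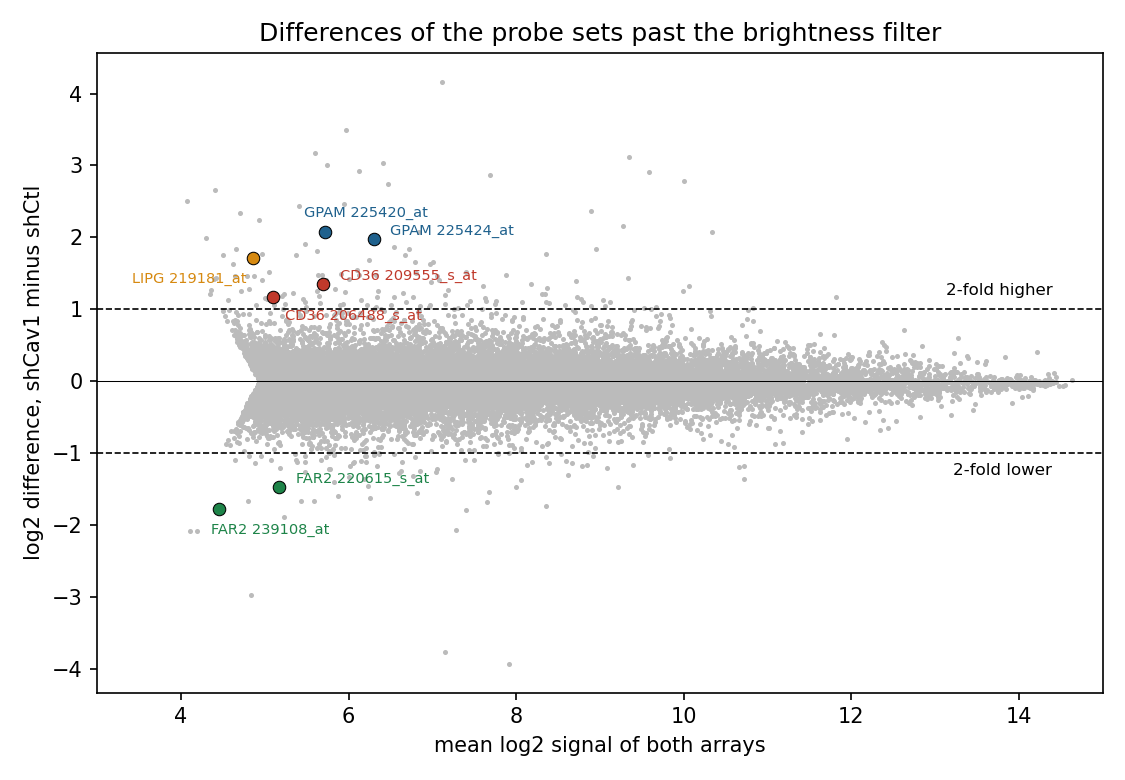
Log2 difference, shCav1 minus shCtl, against the mean log2 signal of both arrays for the 28128 kept probe sets (grey points) with the 7 probe sets of the 4 genes in colour and dashed lines at 2-fold. The 4 genes lie in the dim part of the range, with GPAM highest at 2.08 and 239108_at of FAR2 lowest at -1.77.

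The pathways around the 4 genes were followed through 9 lists with 217 different gene symbols, of which PEDS1 and TMEM189 name the same gene. Besides the 4, the tables named 3 of the other 213 symbols, all higher in shCav1, with log2 differences from 1.03 to 1.24. Over all kept probe sets 0.501% were past 2-fold higher, but that share counts probe sets and not genes, so nothing particular to the lists is read from these counts. The counts per list include CD36, LIPG, GPAM and FAR2, which were chosen for being past 2-fold. In fatty acid uptake and activation 3 of 26 genes were listed, all higher. They were CD36, FABP3, a cytosolic fatty acid carrier best known from heart and muscle, and VLDLR, a receptor for triglyceride-rich lipoproteins. The signal of FABP3 was 40.3 in shCtl and 95.3 in shCav1, a log2 difference of 1.24. That of VLDLR was 111 in shCtl and 227 in shCav1, a log2 difference of 1.03 that lies close to the limit.

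Among lipases and their regulators LIPG was the listed gene of 27. In glycerolipid synthesis 2 of 35 genes were listed, both higher. The second, next to GPAM, was AGPAT9, now named GPAT3, which carries out the same acyl transfer in the endoplasmic reticulum. Its signal was 51.8 in shCtl and 108 in shCav1, a log2 difference of 1.06, against 2.03 for GPAM. VLDLR and AGPAT9 were under 2-fold when the arrays were set by the hybridization spikes, with log2 differences of 0.89 and 0.93. With a pseudocount of 16 FABP3, VLDLR and AGPAT9 were under 2-fold, at 0.98, 0.93 and 0.87.

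FAR2 was the listed gene among 14 symbols of fatty alcohol, wax and ether lipid synthesis, which include PEDS1 and TMEM189. No gene was listed in the remaining 5 lists, which cover 25 genes of fatty acid synthesis, elongation and desaturation, 18 of lipid droplet proteins, 25 of fatty acid oxidation, 19 of lipoprotein assembly and apolipoproteins, and 28 regulators of lipid genes such as the PPAR and SREBP factors. Their differences under 2-fold were not seen, because those probe sets are unnamed here. Over all 190 listed genes with a single symbol, 122 were higher and 68 lower, so 64.2% were higher before any list was considered, in the centring of the deposited values.

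**Figure D3:**
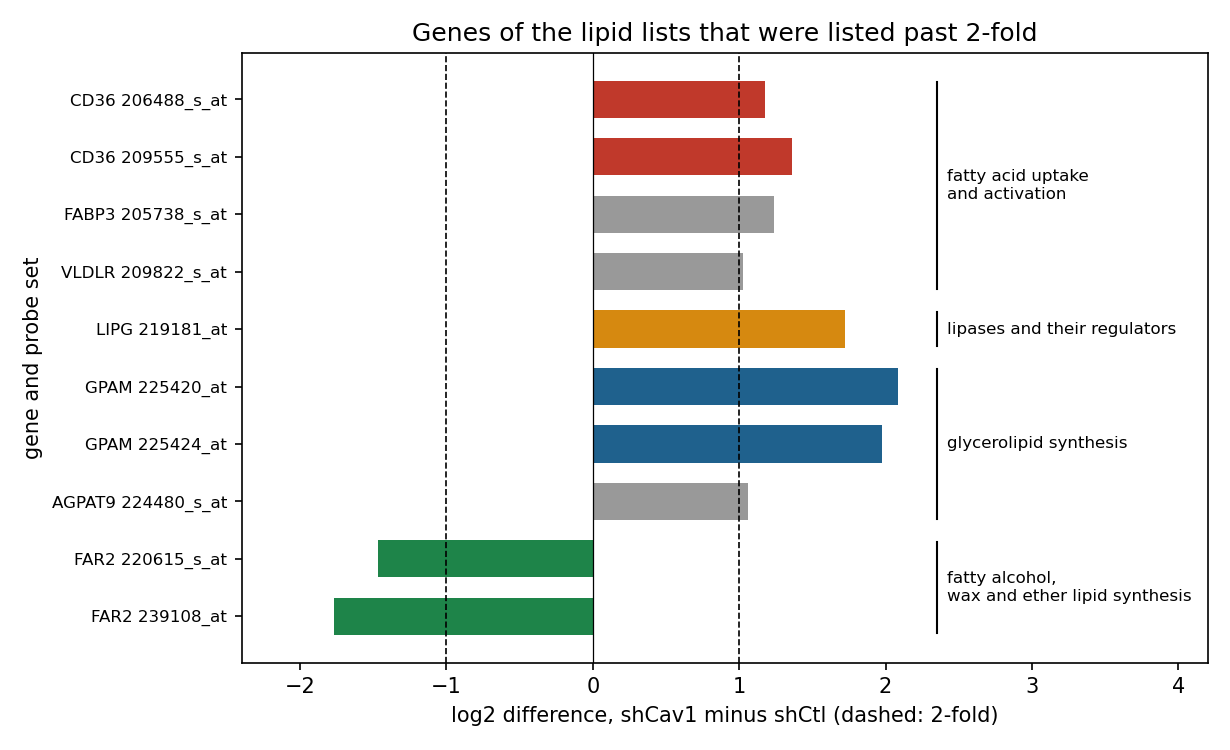
Log2 difference, shCav1 minus shCtl, of every probe set in the authors' tables that belongs to a gene of the lipid lists, grouped by list, with 1 array per group, no error bars and dashed lines at 2-fold. CD36, LIPG, GPAM and FAR2 are coloured, and the grey bars of FABP3, VLDLR and AGPAT9 lie between 1.03 and 1.24.

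The listed genes most like each of the 4 were found by distance on log2 shCtl signal and log2 difference over the 2 samples, from its brightest listed probe set. Probe brightness depends on the probe as well as the transcript, so this likeness describes the readings. Nearest to CD36 were ASXL3 with a distance of 0.05 and the complement protease gene C1S with 0.11. LIPG had GRIK2, a glutamate receptor subunit, at 0.10 and MAGEA12 at 0.21. GPAM had the receptor tyrosine kinase gene EPHA3 at 0.07 and AFF3 at 0.31. The nearest genes to FAR2 were PIWIL2 at 0.28 and the scaffold protein gene AKAP12 at 0.29, which is farther than for any nearest gene above other than AFF3.

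The deposited annotation terms of the 4 genes share little beyond place in the cell. CD36, GPAM and FAR2 carry the term integral to membrane, as do 59 of the listed genes, 40 higher and 19 lower. LIPG and GPAM share phospholipid homeostasis, which 3 listed genes carry, all higher. LIPG and FAR2 share lipid metabolic process. No term other than these and the general terms membrane, metabolic process and catalytic activity was held by 2 or more of the 4 genes. The process terms of CD36 are emptied in the table used here, so its part in this comparison is incomplete.

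The size of each difference depended on how dim signals were treated. With a pseudocount of 16 added to both linear signals, the log2 difference was 1.58 and 1.63 at the GPAM probe sets, 1.10 for LIPG, and 1.03 and 0.80 for CD36, the last under 2-fold. For FAR2 it was -1.01 at 220615_s_at and -1.02 at 239108_at. When the arrays were set against each other by the hybridization spikes, the log2 difference was between 1.04 and 1.95 for the 5 higher probe sets and was -1.60 and -1.90 for FAR2. All 7 stayed past 2-fold under this centring, and its constant shift of 0.14 was too small to turn any direction.

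**Figure D4:**
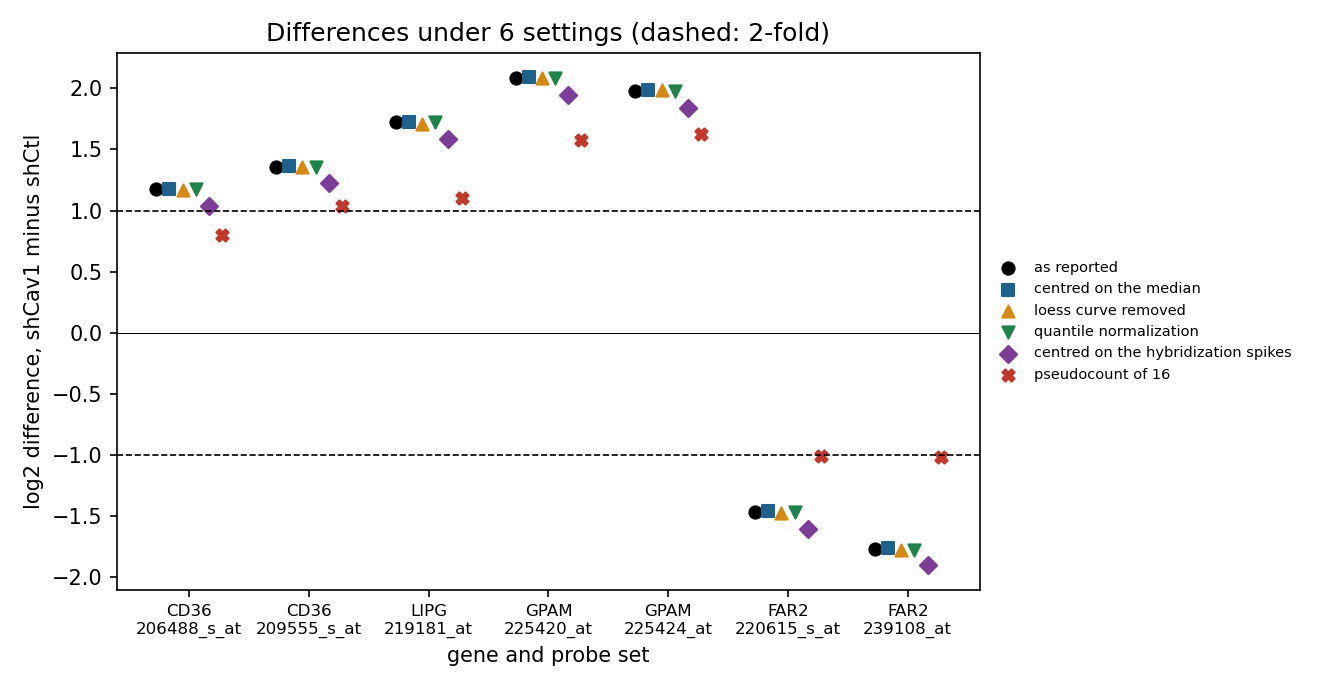
Log2 difference, shCav1 minus shCtl, of the 7 probe sets as reported and under 5 other settings, 1 array per group, with dashed lines at 2-fold. Crosses for a pseudocount of 16 lie nearest to 0, and that for 206488_s_at of CD36 is inside the 2-fold lines at 0.80.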

How the data were processed

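Total RNA of 2 Hep3B samples was isolated with Trizol, biotin-labelled, per the labels, and hybridised to 1 Affymetrix HG-U133 Plus 2.0 array each, per the file headers. RMA is the tool named in the submitters' processing notes; no source used here gives its version or a genome build. The deposited series values are log2 values centred per probe set on both samples (largest row sum 1e-06), so they give differences and no levels. Another deposited table holds a linear signal intensity, whose control column was mapped to shCtl; 1 further column, whose name fits no label, stayed unused. The shCav1 levels given are the shCtl signal times the fold from the series values. The authors' deposited tables give a linear fold, a log2 difference and gene symbols for 244 probe sets; other probe sets are unnamed here.

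Analyses excluded 62 control probe sets. Kept probe sets were those for which the brighter array reached the median of all values. The robust SD is the scaled median absolute deviation. No test was run, since single arrays leave no estimate of spread within a group. The genes named were all listed probe sets of the 4 genes, the 2 nearest genes of each, every listed gene of the lipid lists, and CAV1. Members, lists and the rule were chosen with earlier results of these data known; 1 item of the lists is not reported here. Alternatives were a pseudocount of 16, centring on the median or the spikes, a loess curve (span 0.3), quantile normalization, other filters, limits of 1.5-fold and 3-fold, and no _s_at or _x_at probe sets. Counting was tested on simulated data. Python 3.11.15, pandas 2.3.3 and statsmodels 0.14.6 were used.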

Additional observations from a re-analysis of the deposited data

How the results depend on the processing

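The 7 probe sets of the 4 genes kept their direction under a pseudocount of 16, both centrings, loess, quantile normalization and the mean over listed probe sets. An equal pseudocount on both arrays cannot turn a direction. The centrings take off the median difference of -0.007 or the spike median of 0.14, too little to turn differences past 2-fold. Their kept direction was thus fixed in advance. Outside the pseudocount all 34 values stayed within the robust SD of 0.21 of those reported. For both centrings this follows from the size of the shift. For the mean it follows from the closeness of the 2 probe sets of a gene. The pseudocount gave 1.58 and 1.63 for GPAM, 1.10 for LIPG, 0.80 and 1.03 for CD36, and -1.01 and -1.02 for FAR2, which follows from its shrinking of dim differences. It left 91 probe sets higher and 49 lower past 2-fold and 3 of the 6 higher lipid list genes. Centring on the spikes turned the balance of all kept probe sets past 2-fold to 102 higher and 142 lower. It left 4 higher list genes, since VLDLR and AGPAT9 dropped under 2-fold. The filter at the 75th percentile tests fewer probe sets and gave 79 higher and 43 lower; it kept 1 of the 3 higher genes, GPAM, and 0 for FAR2, with 2 higher list genes and 0 lower. At 1.5-fold there were 552 higher and 578 lower probe sets, and at 3-fold 42 and 16, with 2 higher list genes. Without _s_at and _x_at probe sets, 2 of the 3 higher genes and 2 higher list genes were left. All listed probe sets of CD36, FABP3, VLDLR and AGPAT9 have such names. No paired analysis was possible because there is 1 sample in each group. Signal over background was not measured, and 5 of the 7 probe sets lay below the array median on 1 array.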

Other observations

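Genes and terms below were picked with their values in view. The deposited term lipid metabolic process is held by 8 listed genes, 5 higher and 3 lower in shCav1, beside 122 higher and 68 lower over all listed genes with a single symbol. The higher ones were LIPG and VLDLR, given above, NPC1L1, a cholesterol importer, with a log2 difference of 1.76, AKR1D1, a reductase of bile acid synthesis, with 1.46, and IAH1 with 1.0003. Next to FAR2 the lower ones were PLCXD3, of the phospholipase C family, with -1.61 and PAFAH2, which cleaves short or oxidised acyl chains from phospholipids, with -1.13. Under the term lipid catabolic process 2 genes were higher, LIPG and IAH1, and 2 were lower, PLCXD3 and PAFAH2. The term phospholipid biosynthetic process is held by 3 listed genes, GPAM, AGPAT9 and LPGAT1, all higher, with LPGAT1, an acyltransferase of lysophospholipids, at 1.01. Several of these increases lie at the limit. Set by the hybridization spikes, VLDLR was at 0.89 and AGPAT9 at 0.93, both under 2-fold. IAH1 and LPGAT1 pass the limit by less than the spike median of 0.14, so they too fall under 2-fold there. The 3 lower genes move further from 0 under that centring. Process terms are emptied for 16 and blank for 66 of the 244 listed probe sets, so these counts are incomplete.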
